A study of Ovis aries with 9 samples.

Results

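Transfer RNA (tRNA) genes with reads were described in the ovaries of 9 ewes. They were selected on their reads, as the rows of the gene count table named TRNA, an amino acid letter and an anticodon, with raw counts summing to at least 10 over the 9 libraries. Of 1584 such rows, 276 (17.4%) reached that sum, 716 had 1 to 9 reads and 592 had no read. The whole table held 27174 rows. One further row met the letters of the rule, TRNAU1AP, but it is a protein-coding gene and is given apart at the end. At the edge of the rule, 25 tRNA genes had exactly 10 reads and 38 rows just outside it had 9.

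A tRNA carries 1 amino acid to the ribosome and reads the codon of the messenger RNA through its anticodon. tRNA genes are transcribed by RNA polymerase III into precursors whose ends are trimmed and whose bases are heavily modified, and some precursors carry an intron that is cut out. The mature molecules are short, tightly folded and modified, so that ordinary RNA-seq captures them poorly, and genomes hold many near-identical copies of each gene as well as short repeats that descend from tRNA genes. The counts here did not separate mature tRNA from precursors or from longer transcripts that cross the same place. Only uniquely mapped reads were kept by the study, so the split of reads between near-identical copies is uncertain for every row named below. Whether strand was used in the counting is not given in the sources used here.

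The 3 groups, with 3 ewes each, were Small Tail Han sheep of genotype FecBBFecBB (Han BB: W1, W2 and W4), Small Tail Han sheep of genotype FecB+FecB+ (Han ++: W6, W7 and W8), and Dorset sheep labelled wild type (D4, D5 and D6). FecB is the fecundity allele of BMPR1B, a receptor of bone morphogenetic proteins, and raises the ovulation rate. All ewes were adults whose estrus had been synchronized with a progestogen sponge and pregnant mare serum gonadotropin. Whole ovaries carrying ovulation points were taken from ewes that had reached spontaneous estrus after an estrous cycle. The 2 Han groups differ in genotype within a breed, whereas either Han group differs from Dorset in breed, and breed cannot be told apart from anything else that differed between the Han and Dorset ewes.

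Libraries held 10803913 to 20992535 counts. Levels are given as counts-per-million (CPM) values, relative to the library total after trimmed-mean (TMM) scaling, unless stated otherwise. Granulosa and steroidogenic genes had reads in every library, with INHA at 13.6 to 95.2 CPM and CYP11A1 at 73.6 to 493 CPM. Other ovary markers were weaker in some libraries, with AMH down to 0.334 CPM and CYP17A1 down to 2.81 CPM. The sum of 12 ovary markers was 557 to 1052 CPM in Dorset, 417 to 931 CPM in Han BB and 557 to 795 CPM in Han ++. By rank correlation, 5 of the 9 libraries were closest to a library of another group, among them all 3 Dorset libraries. W4 (Han BB) and D6 (Dorset) were closest to each other over all tested rows (Spearman's rho 0.978), against at best 0.931 and 0.949 with a library of their own group, and D4 (Dorset) was closest to W2 (Han BB) at 0.956, against 0.933 within Dorset. D5 (Dorset) was closest to W7 (0.962, against 0.949) and W1 (Han BB) to W6 (0.978, against 0.971), both Han ++. Markers of other cell types differed in part with breed. The sum of 8 ciliated epithelium markers was 64.1 to 229 CPM in Dorset (median 70.9), 104 to 611 CPM in Han BB (median 172, with W4 highest) and 155 to 338 CPM in Han ++ (median 322). In W4 this sum exceeded that of the ovary markers (435 CPM, the Han BB median). The 3 blood cell markers were PTPRC, CD3E and CD68, with no haemoglobin gene, and CD68 had the highest median of them (133 CPM). Their sum was 86.5 to 228, 194 to 309 and 159 to 260 CPM in Dorset, Han BB and Han ++ (medians 152, 242 and 235). The groups overlapped in each of these sums, no marker was at 0 in any library, and their part in the tRNA values was not tested. In whole ovaries, fewer cells of a type and less RNA per cell cannot be told apart.

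The 276 tRNA genes together took 14905 of 153050306 counts (0.00974%). Their reads were concentrated in a few genes: the 4 with the highest totals held 36.9% and the highest 20 held 63.5%. The highest total belonged to TRNAS-GGA.8, a serine tRNA gene with 2050 reads, followed by TRNAD-GUC.7 (aspartic acid) with 1763, TRNAK-UUU.5 (lysine) with 1033 and TRNAC-GCA.248 (cysteine) with 653. At the other end, 213 of the 276 genes had fewer than 30 reads over all 9 libraries. Reads in every library were found for 16 genes, and 22 genes had reads in only 1 library.

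The names covered the 20 amino acids and a stop codon class, and 47 of 57 annotated anticodons had at least 1 gene with 10 or more reads. Cysteine led with 3224 reads, or 21.6% of the reads of the 276 genes, from 61 of its 407 annotated rows. Serine followed with 2590 reads (24 of 147 rows), aspartic acid with 1966 (4 of 15 rows), lysine with 1696 (20 of 56 rows) and glutamic acid with 1022 (23 of 153 rows). The order by reads was therefore not the order by annotated rows, since aspartic acid held 13.2% of the reads with only 4 genes. Proline and the stop codon class had 1 gene each, with 11 and 23 reads.

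Single genes carried most of the reads of several classes. TRNAD-GUC.7 held 89.7% of the aspartic acid reads, TRNAS-GGA.8 held 79.2% of the serine reads and TRNAK-UUU.5 held 60.9% of the lysine reads. Cysteine was spread more widely, with 20.3% in its leading gene. By anticodon, the highest sums were 2758 reads for cysteine GCA, 2276 for serine GGA, 1966 for aspartic acid GUC, 1311 for lysine UUU and 999 for glutamic acid UUC. The 10 anticodons without a gene of 10 reads had between 1 and 9 annotated rows each.

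**Figure D1:**
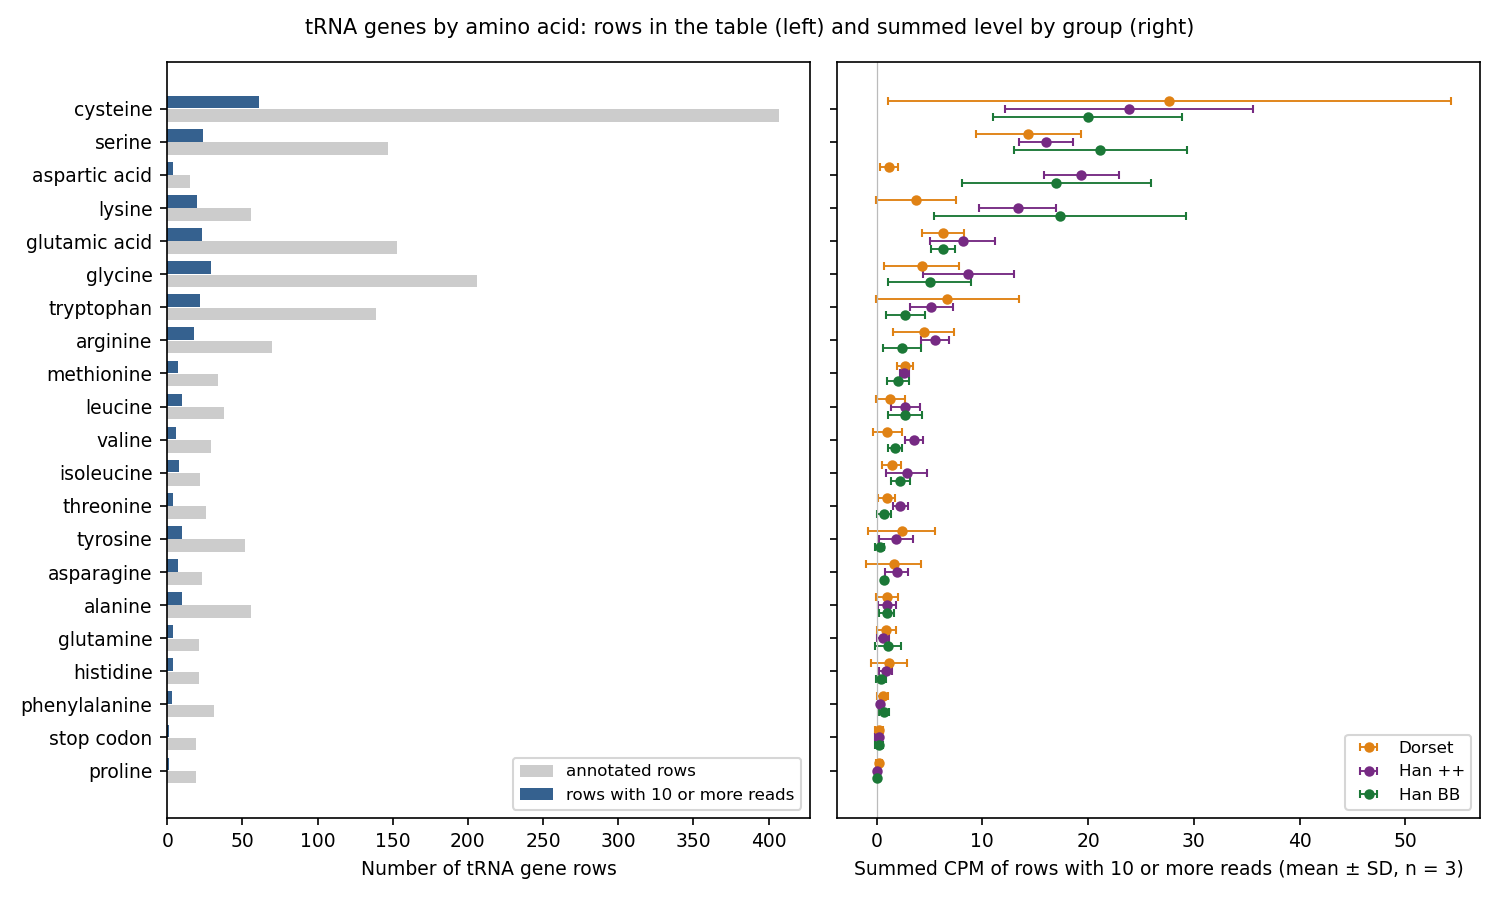
Transfer RNA genes by amino acid. Left, number of annotated rows (grey) and of rows with 10 or more reads (blue); right, summed CPM of the latter in Dorset, Han ++ and Han BB ovaries as mean ± SD (n = 3). Cysteine has the most rows (407, of which 61 with 10 or more reads), and the aspartic acid points of the Han groups (17.0 and 19.4 CPM) lie away from the Dorset point (1.20 CPM).

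In the sums by amino acid, aspartic acid and lysine had the highest ratios of Han to Dorset means. The Dorset mean of the aspartic acid genes was 1.20 ± 0.862 CPM, whereas Han BB reached 17.0 ± 8.96 CPM and Han ++ 19.4 ± 3.51 CPM (SD, n = 3). All 6 Han libraries, at 6.96 to 24.2 CPM, lay above the Dorset libraries, at 0.223 to 1.85 CPM. For the lysine genes the Dorset mean was 3.72 ± 3.75 CPM, Han BB 17.4 ± 11.9 CPM and Han ++ 13.3 ± 3.63 CPM, and here too the lowest Han library (W1, 9.21 CPM) stood above the highest Dorset library (D4, 7.98 CPM). Cysteine showed no such order, with 27.7 ± 26.6, 19.98 ± 8.92 and 23.8 ± 11.7 CPM in Dorset, Han BB and Han ++. D4 was highest at 58.1 CPM, and D5 (16.2 CPM) also lay above W1, W4 and W7. Serine sums of 14.3 ± 4.97, 21.2 ± 8.16 and 16.0 ± 2.56 CPM also overlapped.

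Summed over all 276 genes, on the scale of the plain library total without TMM scaling, the level was 133 CPM in D4, 63.3 in D5 and 42.2 in D6. In Han BB they were 83.7 in W1, 127 in W2 and 101 in W4, and in Han ++ they were 115 in W6, 100.3 in W7 and 158 in W8. The group values of 79.4 ± 47.3 in Dorset, 104 ± 21.5 in Han BB and 125 ± 30.1 in Han ++ (SD, n = 3) overlapped, with D4 above 5 of the 6 Han libraries. Without W4 and D6 (chosen once the data had been seen, like the next alternative) the means were 98.0, 105.1 and 125 CPM. Without W2, W8 and D4 they were 52.8, 92.5 and 108 CPM.

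Much of the long tail of weakly covered genes came from single libraries. In 139 of the 276 genes, 1 library held at least 50% of the reads: D4 for 48 genes, W2 for 37, W8 for 22, D5 for 17, W7 for 8, W6 for 4, W1 for 2, W4 for 1 and D6 for none. These 139 genes held 14.2% of the reads, and 134 of them had fewer than 30. Among tRNA genes with 10 to 29 reads the share was 62.9% (134 of 213), and among all other rows of the table with as many reads it was 50.9% (1408 of 2765). Among rows with 30 or more reads it was 7.94% of tRNA genes (5 of 63) and 2.42% of other rows (454 of 18739). That class has no upper limit, so totals were not matched in it. D4, W8 and W2 were the 3 libraries in which the row LOC101101865 took the largest share of all counts (14.9%, 7.69% and 3.79%, against at most 2.28% elsewhere), and whether the reads of that row bear on the tRNA reads was not tested.

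**Figure D2:**
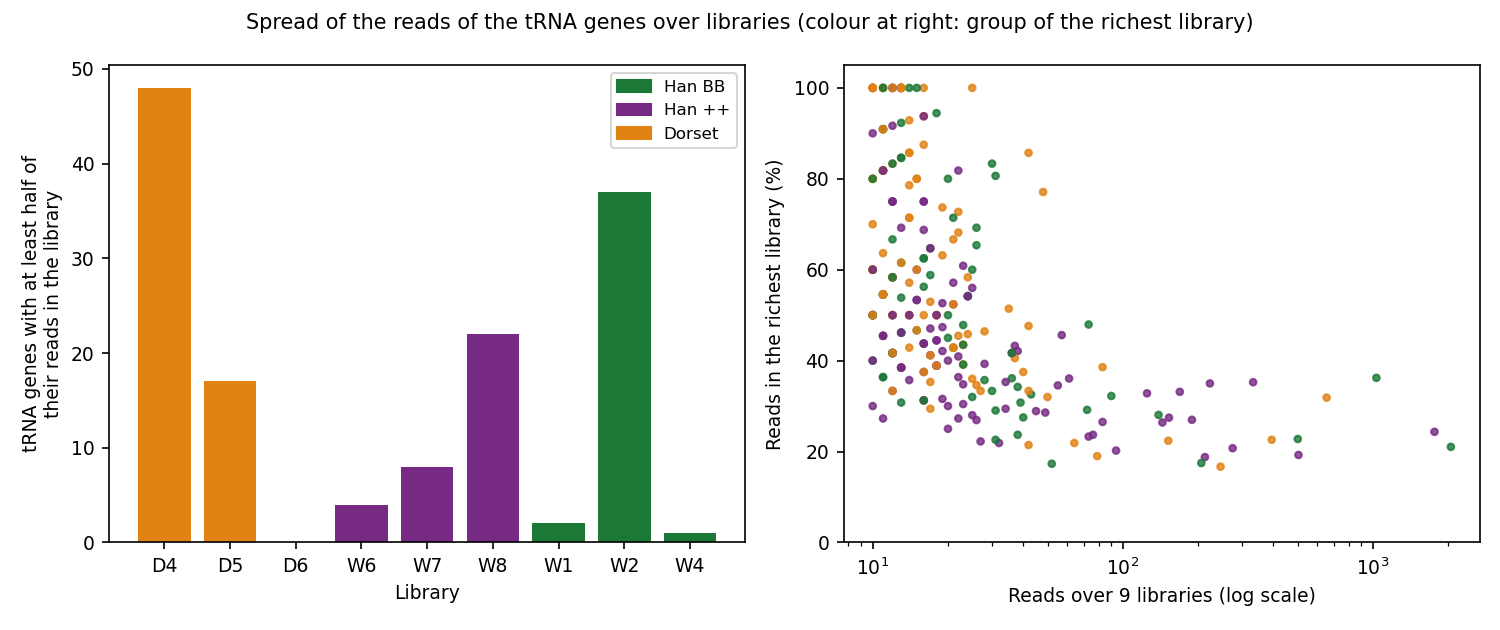
Spread of tRNA gene reads over libraries. Left, number of genes with at least 50% of their reads in the named library; right, percent of a gene's reads in its richest library against its reads over 9 libraries (log scale), coloured by the group of that library. D4 (48), W2 (37) and W8 (22) hold most such genes, and genes with high totals lie low on the right.

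The number of genes detected followed the same libraries in part. Reads were found for 184 of the 276 genes in W6, 163 in W8 and 163 in D4, and for 82 to 122 in the other 6 libraries. W6, W8 and D4 also had the most rows of any kind with a read (21181 to 22360, against 18498 to 19909). By group, 35 genes had reads in all 3 Dorset libraries, 37 in all 3 Han BB libraries and 64 in all 3 Han ++ libraries, whereas 47, 73 and 37 had no read in any library of the group.

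TRNAD-GUC.7, an aspartic acid tRNA gene, had the most reads of the genes whose levels did not overlap between the breeds. It had 371, 305 and 94 reads in W1, W2 and W4, 429, 329 and 191 in W6, W7 and W8, and 14, 27 and 3 in D4, D5 and D6. The lowest Han library (W4, 6.29 CPM) lay above the highest Dorset library (D4, 1.36 CPM), with W4 low within its own group. The Dorset mean was 0.916 ± 0.652 CPM, against 15.1 ± 7.85 CPM for Han BB and 17.6 ± 2.79 CPM for Han ++ (SD, n = 3). From the pooled reads, the ratio to Dorset was 17.5 for Han BB (95% interval 12.9 to 24.3) and 20.1 for Han ++ (14.9 to 27.9), and these intervals cover counting error only.

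The other aspartic acid genes were far weaker. TRNAD-GUC.3 had 39, 27 and 3 reads in Han BB, 36, 15 and 12 in Han ++ and 0, 6 and 1 in Dorset, and W4 (0.201 CPM) lay below D5 (0.271 CPM). In the Han libraries its reads came to 3.19% to 10.5% of those of TRNAD-GUC.7. TRNAD-GUC.10 had 4, 13 and 6 reads in Han BB, 8, 7 and 0 in Han ++ and none in Dorset. TRNAD-GUC.2 had 26 reads in all, with D4 (5 reads) at the level of the Han libraries.

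Among lysine genes, TRNAK-UUU.5 had 148, 81 and 374 reads in Han BB, 243, 134 and 45 in Han ++, and 5, 3 and 0 in Dorset. W4 alone held 36.2% of its reads and stood at 25.0 CPM, against 4.15 to 11.6 CPM in the other Han libraries. The Dorset libraries, at 0 to 0.487 CPM, stayed below all of them. TRNAK-UUU.12 had 28, 16 and 29 reads in Han BB, 56, 19 and 21 in Han ++ and no read in Dorset. Against a floor of 3 counts over the Dorset group, its pooled level was at least 24.4-fold higher in Han BB and at least 29.9-fold higher in Han ++. Such bounds cover neither the counting error of the Han reads nor differences between ewes. The remaining 18 lysine genes had at most 94 reads each, and TRNAK-CUU.11, the highest of them, ran from 0 reads in W8 to 19 in W7 with Dorset at 11, 14 and 7.

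TRNAV-AAC.9, a valine tRNA gene, had levels that did not overlap among the 3 groups. It had no read in D4, D5 or D6, 20, 20 and 11 reads in W1, W2 and W4, and 78, 57 and 37 in W6, W7 and W8. Han BB (0.736 to 1.40 CPM) lay below Han ++ (2.58 to 3.72 CPM). The share of all rows without overlap between the Han groups was not computed, and the gene's edgeR adjusted p for Han BB vs. Han ++ was 0.999. Against the same floor and with the same limits, its pooled level was at least 17.0-fold higher in Han BB and at least 53.6-fold higher in Han ++ than in Dorset.

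Other tRNA genes with higher counts in Han sheep had overlapping groups or smaller ratios. TRNAC-GCA.207, a cysteine gene, had 96, 35 and 50 reads in Han BB, 97, 78 and 67 in Han ++, and 13, 46 and 22 in Dorset, and its lowest Han library (W2, 2.45 CPM) lay above its highest Dorset library (D5, 2.07 CPM). TRNAS-GCU.11, a serine gene, had 14, 16 and 10 reads in Han BB, 16, 20 and 41 in Han ++, and 0, 7 and 1 in Dorset, again without overlap in CPM. TRNAG-UCC, a glycine gene, did not follow breed: it had 88 reads in W2 but 5 in W1 and 0 in W4, and 47, 117 and 67 in Han ++, against 0, 8 and 0 in Dorset. TRNAS-CGA had 26 and 21 reads in W7 and W8, at most 6 in the other Han libraries and none in Dorset.

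**Figure D3:**
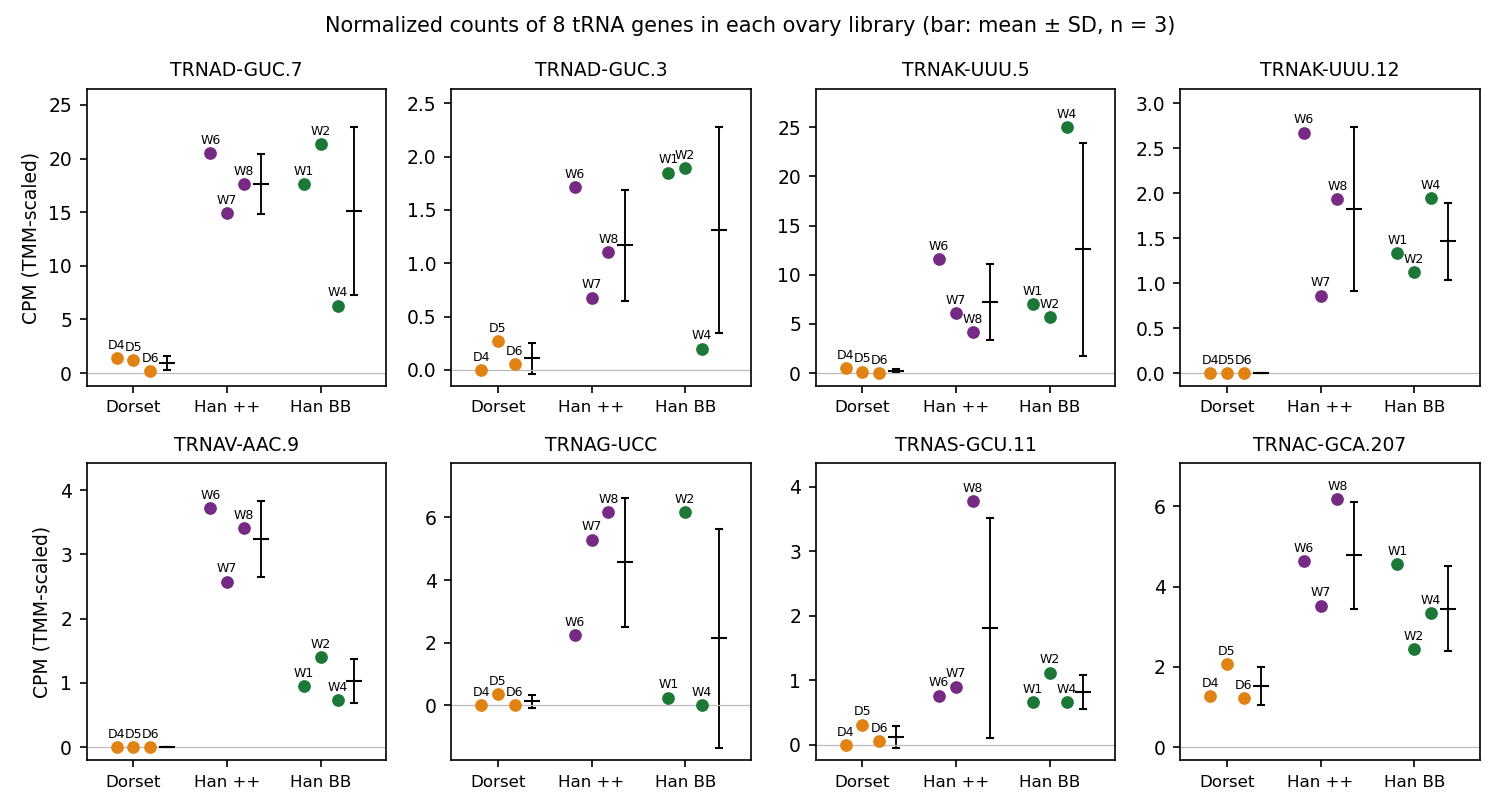
TMM-scaled CPM of 8 tRNA genes in each ovary library, with mean ± SD bars (n = 3) beside the points of each group. The 3 Dorset points lie at or near 0 for the aspartic acid, lysine and valine genes, W4 stands low for TRNAD-GUC.7 and high for TRNAK-UUU.5, and TRNAV-AAC.9 is higher in Han ++ than in Han BB.

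Several of the most counted genes showed no such order. TRNAS-GGA.8, the gene with the most reads, had 280, 166 and 431 reads in Han BB, 227, 284 and 83 in Han ++, and 44, 193 and 342 in Dorset. Its highest levels were in W4 (28.8 CPM) and D6 (19.1 CPM), the pair of libraries that stood apart, and its lowest were in D4 (4.28 CPM) and W8 (7.65 CPM). TRNAC-GCA.248 went the opposite way, with 208 reads in D4, 167 in W8 and a level of 7.355 CPM in W2, but 1 read each in W4 and D6. TRNAE-UUC.67 and TRNAM-CAU.12, the latter for methionine, had group means between 1.46 and 2.64 CPM and overlapped throughout. TRNAC-GCA.185 was at 3.61 to 5.41 CPM in Han BB, above all Dorset libraries (2.01 to 3.38 CPM), whereas Han ++ (1.38 to 3.85 CPM) overlapped both groups. Its edgeR adjusted p for Han BB vs. Dorset was 0.996, and the share of all rows with Han BB above every Dorset library was not computed.

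The differential test was edgeR's quasi-likelihood test on the counts of all rows, with Benjamini-Hochberg adjustment, and a row was called at an adjusted p under 0.05 with a fold over 1.5. After its filter on low counts, 16871 rows were tested, among them 31 of the 276 tRNA genes, which hold 68.9% of the reads. A gene high in a single group could pass the filter through that group, so counts over these 31 do not support a statement on tRNA genes at large. No tRNA gene was called in any comparison by this fit. The background was as low, with 0% of rows called for Han BB vs. Dorset and for Han BB vs. Han ++, and 0.00593% (1 row, not a tRNA gene) for Han ++ vs. Dorset. The comparisons of both Han groups with Dorset share the Dorset libraries, so they are not independent of each other.

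For Han BB vs. Dorset, 8 of the 31 genes (25.8%) had an unadjusted p under 0.05, all with higher values in Han BB, against a background of 4.99% of all rows tested. These were TRNAK-UUU.5, TRNAD-GUC.7, TRNAV-AAC.9, TRNAK-UUU.12, TRNAD-GUC.3, TRNAC-GCA.207, TRNAG-UCC and TRNAS-GCU.11. TRNAV-AAC.9 and TRNAK-UUU.12 had no Dorset read and passed the filter through Han libraries. TRNAK-UUU.5, TRNAG-UCC, TRNAS-GCU.11 and TRNAD-GUC.3 stood at 0.487 CPM or less in every Dorset library and also passed through Han libraries. Most of these genes were thus tested because they were high in Han, so their share and direction do not count as support for a difference. Without the filter it was 5.8% of the 276 genes, against 4.63%. The log2 fold change of TRNAK-UUU.5 was 6.12 ± 0.99 (SE), with the lowest p of all 16871 rows but an edgeR adjusted p of 0.627. For TRNAD-GUC.7 it was 4.06 ± 0.67, with the same adjusted p. TRNAC-GCA.207 had a log2 fold change of 1.17 ± 0.46 and an edgeR adjusted p of 0.975. TRNAG-UCC turned from 3.84 to -0.10 when W2 was left out.

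For Han ++ vs. Dorset, the same 8 genes had an unadjusted p under 0.05, again with higher values in Han ++ and against a background of 5.27%. The same limit of the filter applies. TRNAD-GUC.7 had a log2 fold change of 4.29 ± 0.67 (SE) and an edgeR adjusted p of 0.187, and TRNAK-UUU.5 one of 5.34 ± 0.97 and 0.215. TRNAV-AAC.9 had an edgeR adjusted p of 0.166 and TRNAK-UUU.12 one of 0.215. With both Han groups joined, a comparison that was added once results were known, the background was 6.12% at an unadjusted p under 0.05 and 0% called, and the edgeR adjusted p of TRNAD-GUC.7 was 0.214.

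The calls depended on the tool and on the libraries. DESeq2 called TRNAK-UUU.5, TRNAK-UUU.12, TRNAV-AAC.9 and TRNAD-GUC.7 in both comparisons with Dorset, with DESeq2 adjusted p-values for TRNAD-GUC.7 of 3.91e-07 (Han BB) and 3.12e-08 (Han ++), against DESeq2 backgrounds of 0.244% and 0.405% of rows called, whereas limma called no row. Without the filter on low counts, edgeR called TRNAK-UUU.5 and TRNAD-GUC.7 for Han BB vs. Dorset (adjusted p of 0.0187 for each), against a background of 0.00808%. For Han ++ vs. Dorset it called TRNAD-GUC.7 (0.0108), TRNAV-AAC.9 and TRNAK-UUU.5 (0.0204 for each), against 0.0445%, and for both Han groups the same 3 genes, against 0.0242%. Without W4 and D6, edgeR called TRNAD-GUC.7 in both comparisons (adjusted p of 0.00805 for Han BB and 0.00788 for Han ++), with log2 fold changes of 3.91 and 3.78, among 2 and 22 rows called in all. Leaving out W4 alone gave an edgeR adjusted p of 0.0235 for this gene in Han ++ vs. Dorset and 0.055 in Han BB vs. Dorset. Other omissions of 1 library raised the edgeR adjusted p to as much as 0.823 for Han ++ (without W6). For Han BB it rose to 0.9998 (without D5). Without W2, W8 and D4, edgeR called no tRNA gene.

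The unfiltered fit covered all 276 genes. For Han BB vs. Dorset 16 of them (5.8%) had an unadjusted p under 0.05, 12 higher and 4 lower in Han BB, against a background of 4.63%. For Han ++ vs. Dorset there were 16 as well, 13 higher and 3 lower, against 4.05%. For both Han groups there were 40 (14.5%), 11 higher and 29 lower, against 6.32%. All 29 of these lower genes had at least 50% of their reads in 1 library, which was D4 for 25 of them. Over the 276 genes the median log2 fold change was -0.38 for Han BB and 0 for Han ++ vs. Dorset, beside -0.03 and -0.04 over all 24744 rows.

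Within the Han breed, the comparison of FecB genotypes gave 2 of the 31 genes with an unadjusted p under 0.05, both lower in Han BB, against a background of 1.97%. TRNAV-AAC.9 had a log2 fold change of -1.65 ± 0.68 (SE), and TRNAR-UCG.1, an arginine gene, one of -2.33 ± 0.97, each with an edgeR adjusted p of 0.999. TRNAR-UCG.1 had 4, 13 and 1 reads in Han BB and 32, 51 and 22 in Han ++, without overlap, and 14, 43 and 9 in Dorset. The share of all rows without overlap between the genotypes was not computed, so this order has no background. TRNAD-GUC.7 and TRNAK-UUU.5 overlapped between the genotypes. In the unfiltered fit, 2 of the 276 genes (0.725%) had an unadjusted p under 0.05, against 2.08% of all rows, and none was called by this fit, by DESeq2 or by limma. The lowest unadjusted p-values there belonged to TRNAR-UCG.1, TRNAS-GGA.4 and TRNAK-CUU.13, of which the last 2 had 12 of 16 reads each in W8.

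All 6 Han libraries lay above all 3 Dorset libraries in CPM for 7 of the 276 genes (2.54%), beside 1.53% of the 21780 rows with 10 or more reads. These were TRNAD-GUC.7, TRNAK-UUU.5, TRNAK-UUU.12, TRNAV-AAC.9, TRNAC-GCA.207, TRNAS-GCU.11 and TRNAE-UUC.65, a glutamic acid gene with 27 reads, 1 to 6 in each Han library and none in Dorset. None lay below in all 6, beside 1.58% of those rows. In all, 47 of the 276 genes had no read in Dorset, beside 73 in Han BB and 37 in Han ++. Shares over other rows were computed for Dorset only. Of the 47 genes, 43 were among the 213 genes with 10 to 29 reads (20.2%), beside 11.03% of other rows with as many reads (305 of 2765). Among genes with 30 or more reads it held for 4 of 63 (6.35%), namely TRNAV-AAC.9, TRNAK-UUU.12, TRNAS-CGA and TRNAD-GUC.10. The share was 0.149% of other rows with 30 or more reads (28 of 18739). This class has no upper limit on reads, so the totals of tRNA genes and other rows were not matched in it.

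**Figure D4:**
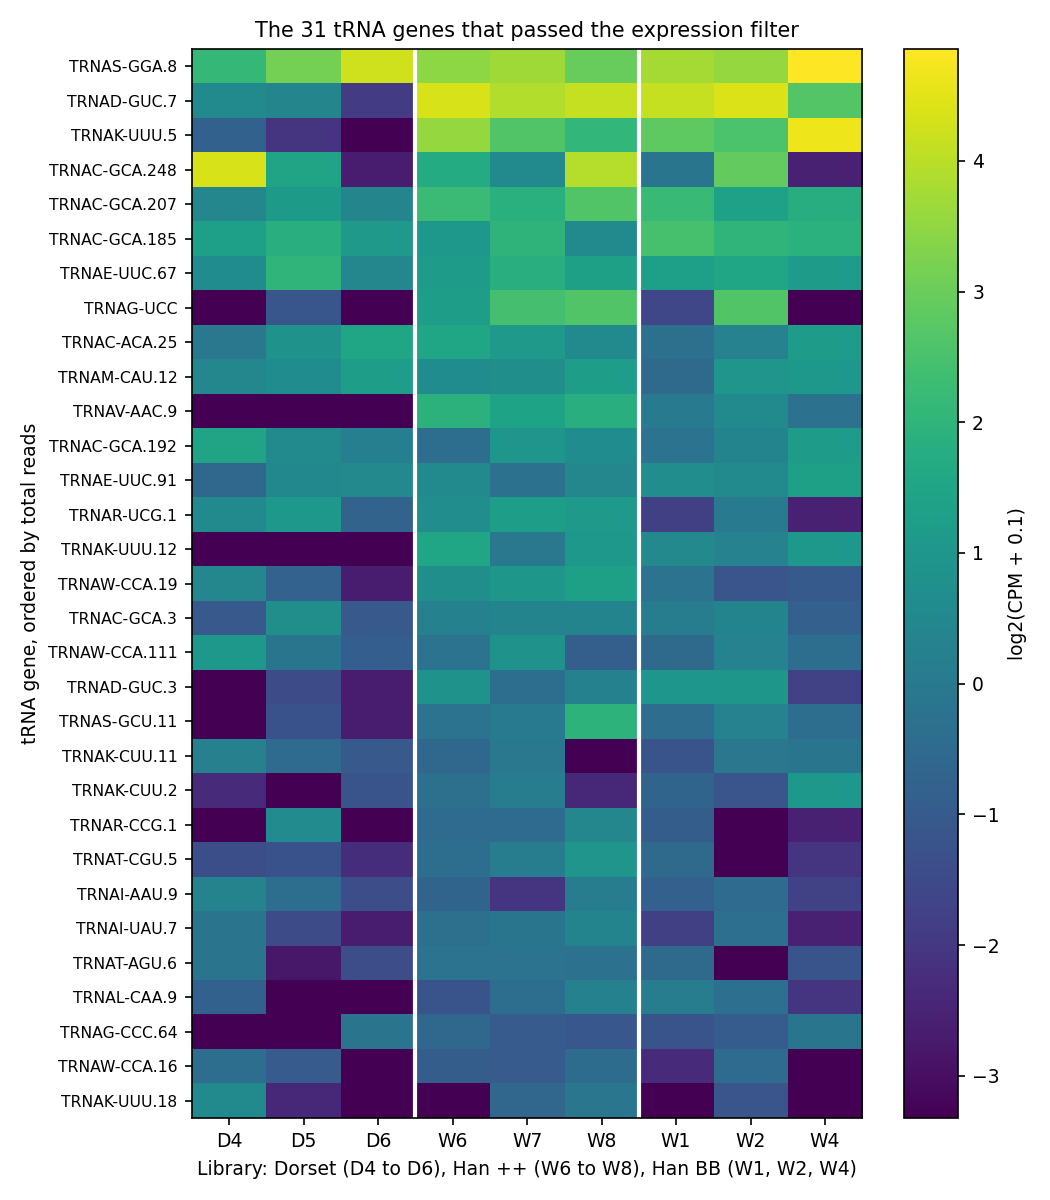
Level of the 31 tRNA genes that passed the filter on low counts, as log2(CPM + 0.1), in 9 libraries grouped as Dorset, Han ++ and Han BB and ordered by total reads. TRNAD-GUC.7, TRNAK-UUU.5, TRNAV-AAC.9 and TRNAK-UUU.12 are each darker in the 3 Dorset columns than in any Han column. TRNAC-GCA.248 is bright in D4 and W8 and dark in D6 and W4.

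The proteins that make and use tRNAs were examined through lists of genes. No gene of these lists was called by edgeR in any comparison. The counts at an unadjusted p under 0.05 that follow are for the pairwise comparisons, where the shares over all rows were 4.99% (Han BB vs. Dorset), 5.27% (Han ++ vs. Dorset) and 1.97% (Han BB vs. Han ++). Of 24 tested cytosolic aminoacyl-tRNA synthetases and their partners, which charge tRNAs with amino acids, none had an unadjusted p under 0.05 for Han BB vs. Dorset and 1 had for Han ++ vs. Dorset. This was CARS, the cysteine enzyme, at 60.4 ± 5.30 CPM in Dorset and 33.5 ± 3.14 CPM in Han ++ (SD, n = 3). DARS, which charges aspartic acid tRNA, did not reach that level in any comparison, and its log2 fold change for Han BB vs. Han ++ was 0.45. None of the 17 tested mitochondrial synthetases passed that level in a pairwise comparison.

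Of 21 tested subunits and factors of RNA polymerase III, which transcribes tRNA genes, 1 reached that level in a pairwise comparison, the subunit gene POLR3G in Han ++ vs. Dorset, with 7.77 ± 3.28 CPM in Dorset and 2.43 ± 0.137 CPM in Han ++. Of 23 genes for end processing, splicing and export, 1 did so in each comparison with Dorset. TSEN54, a subunit of the tRNA splicing endonuclease, had a log2 fold change of -0.84 in Han BB, and CLP1, an RNA kinase that binds that enzyme, -0.73 in Han ++. Of 34 base modification genes, 2 did so for Han BB vs. Dorset (ADAT2, which makes inosine in anticodons, at 1.01, and PUS1, which makes pseudouridine, at -0.71) and 4 for Han ++ vs. Dorset, 1 higher and 3 lower, among them the methyltransferase gene TRMT1 (-0.72) and CTU2 (-0.79), which thiolates anticodon uridines. For Han BB vs. Han ++ the only one over these lists was THG1L (0.80), which adds a base to histidine tRNA. The median log2 fold changes of the 6 lists lay between -0.18 and 0.25 over the 3 comparisons, beside -0.06 to 0.04 over all rows.

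TRNAU1AP, the protein-coding row caught by the letters of the rule, encodes a protein that works with selenocysteine tRNA. Its Dorset mean was 24.5 ± 4.11 CPM, beside 27.4 ± 10.6 CPM for Han BB and 21.7 ± 1.69 CPM for Han ++ (SD, n = 3). Its log2 fold changes were 0.16 for Han BB and -0.17 for Han ++ vs. Dorset, and 0.34 for Han BB vs. Han ++, and edgeR called none of them. None of the 5 tested genes of selenocysteine tRNA handling, TRNAU1AP included, had an unadjusted p under 0.05.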

How the data were processed

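The ovarian RNA of 9 ewes (3 per group, separate animals) had been sequenced on an Illumina instrument. The deposited file holds the authors' raw counts per gene from uniquely mapped reads. TopHat and build Oar_v3.1 come from the submitters' processing notes, and the counting program is not given in the sources used here. The library kit is described in 2 ways, as a stranded total RNA kit after ribosomal RNA removal in the methods and as a TruSeq RNA kit in the labels, and the choice affects how much tRNA is kept.

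All rows were fitted together with edgeR 4.0.16 (R 4.3.3; TMM, filterByExpr by group, glmQLFit and glmQLFTest over the 3 groups), with Benjamini-Hochberg adjustment over all rows tested. DESeq2 1.42.0 and limma 3.58.1 (voom), DESeq2 size factors, no filter on low counts, fits of 2 groups only, other minimum sums and leaving out libraries were the alternatives. The fit was tested on simulated data before use. Replicates differed by far more than sampling noise. The genes, lists and tests were chosen with earlier results of these data known. Named genes are the 20 with the most reads, those that passed the filter, those called by any fit and, per comparison, the 3 lowest p-values without the filter, and the 2 lowest per pathway list. A few others with a pattern described were chosen after their values were seen. No tRNA sequence or position is printed, because row names could not be matched to single loci. Figures were drawn with matplotlib.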

Additional observations from a re-analysis of the deposited data

How the results depend on the processing

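No paired analysis was possible because the groups were made up of separate ewes. The number of tRNA genes was 520 at a minimum of 5 reads, 112 at 20 reads, 123 without W2, W8 and D4 (added after the data had been seen, like all values for both Han groups), and 212 to 270 when 1 library was left out. tRNA genes called for Han BB vs. Dorset numbered 4 with DESeq2, 2 without the filter and 1 without W4 and D6. For Han ++ vs. Dorset they numbered 4, 3 and 2, and for both Han groups 4, 3 and 1. With 1 library left out they numbered 0 to 1 in these last comparisons, the 1 being TRNAD-GUC.7 without W4. Calls over all rows for Han BB vs. Dorset were 38 with DESeq2, 2 without the filter, 2 without W4 and D6, and 0 to 1 with 1 library left out. For Han ++ vs. Dorset they were 65 with DESeq2, 11 without the filter, 22 without W4 and D6, 0 with limma, with 2 groups only or without W2, W8 and D4, and 0 to 5 with 1 library left out. For both Han groups they were 88, 6, 6, and 0 to 4, and for Han BB vs. Han ++ 2 with DESeq2. The cause was not tested. On the log2 scale, TRNAG-UCC ranged from -0.10 (without W2) to 8.12 with 1 library left out and turned to -0.55 without W2, W8 and D4 for Han BB vs. Dorset. For Han BB vs. Han ++, AIMP1 ranged from -0.014 (without W4) to 1.35 and RARS2 from -0.00063 (without W4) to 0.77, and both turned without W4 and D6 (-0.015 and -0.0017). Of 1041 gene values under alternatives, 1009 kept direction and call, 26 became called and 6 turned. Totals of 10 to 29 reads over 9 libraries limit 213 of the 276 genes.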

Other observations

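A separate set of 22 rows carries names of the mitochondrial style (tRNA with a 3-letter amino acid code) and did not enter the 276 genes. It was dominated by tRNA-Thr, with 10087 reads. Its summed level was 179 CPM in W4, 216 CPM in D6 and 121 CPM in D4, 59.4 CPM in W7 and 41.5 CPM in D5, and 10.3 to 25.98 CPM in the other 4 libraries. It was therefore highest in the pair W4 and D6 that stood apart over all rows, in 1 Han BB and 1 Dorset ewe, followed by D4. The breeds overlapped, since W4 and W7 lay above D5, but the other 4 libraries, all Han, lay below every Dorset library. tRNA-Thr alone reached 201 CPM in D6 and 9.30 CPM in W1. tRNA-Trp had 85 reads in all and stood at 6.42 CPM in D4 and at most 0.676 CPM elsewhere. In 4 of the 22 rows no library had a read.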
